A study of Mus musculus with 6 samples.

Results

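Transcripts of the Toll-like receptor family were examined in cerebella of mice in which an active form of STING was switched on in Purkinje cells. The family was taken as the 10 rows of the count table with the symbols Tlr1, Tlr2, Tlr3, Tlr4, Tlr5, Tlr6, Tlr7, Tlr8, Tlr9 and Tlr13, out of 53746 genes in all, and 6 of the 10 had enough reads to be tested. The control mice were N153SLSL/LSL, which carry both copies of a Sting1 N153S knockin held silent by a LoxP-Stop-LoxP cassette. The N153SLSL/LSLPcp2-cre mice, called Pcp2-cre mice here, carry the same knockin and a Pcp2-cre transgene, whose Purkinje cell promoter drives the Cre that removes the cassette. There were 3 mice per genotype, all aged 2 months. By the labels, number 3 is the female of either genotype and numbers 1 and 2 are males. The RNA came from the whole cerebellum after perfusion with PBS and was selected for poly A tails, so fewer cells of a type and less RNA per cell cannot be told apart.

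Toll-like receptors are innate immune receptors that recognize conserved microbial molecules and some molecules released from damaged cells. TLR1, TLR2, TLR4, TLR5 and TLR6 sit mainly at the cell surface and bind lipoproteins, lipopolysaccharide or flagellin, whereas TLR3, TLR7, TLR8, TLR9 and TLR13 sense nucleic acids in endosomes. Most signal through the adaptor MyD88 to NF-κB, TLR3 signals through TRIF and TLR4 through both. In the brain they are known chiefly from microglia, and TLR3 also from astrocytes.

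Total counts were 6733178 to 10178218 per mouse, and a floor of 3 counts, used here as the limit of detection, came to 0.297 to 0.447 CPM, the counts scaled to the size of the library with TMM factors. At this depth all members but Tlr3 rested on fewer than 40 counts in every mouse, so the precision of single values is low. Sting1, the targeted gene, rose from 25.5 ± 2.09 to 38.0 ± 5.55 CPM (SD, n = 3), with a log2 fold change of 0.57 and an adjusted p of 3.59e-04, but these counts do not show which allele was read. Markers of the microglial lineage were summed at 107 to 113 CPM in control and 251 to 270 CPM in Pcp2-cre mice, and 7 of the 10 rose. Purkinje cell markers were 7074 to 7806 CPM in control and 3977 to 4416 CPM in Pcp2-cre mice, and 4 of 6 fell. Pcp2 (log2 fold change -0.40, adjusted p = 1.79e-05) and Pvalb (-0.22, adjusted p = 0.0109) were also lower, by less than the threshold given below. Choroid plexus markers stood at 797 and 1239 CPM in control mice 1 and 2 but at 33.5 CPM in control mouse 3 and 23.6 to 88.5 CPM in Pcp2-cre mice. Here a gene is said to rise or fall if its Benjamini-Hochberg adjusted p in edgeR's quasi-likelihood test was at most 0.05 and its log2 fold change at least 0.5 in size.

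The genes lie on 7 chromosomes, and members that lie side by side differed in whether their reads could be told apart. Tlr1 (ENSMUSG00000044827, chr5:65082022-65090941 in GRCm39) and Tlr6 (ENSMUSG00000051498, chr5:65108704-65203497) are both on the minus strand of chromosome 5, with 17762 bp between them. They encode the 2 alternative partners of TLR2 and share long identical stretches, of which the longest spans 229 bases within the coding exon of each gene. It is shown here as it lies in Tlr1 at chr5:65082860-65083128, minus strand, because a read from inside it fits both genes. Capitals mark the bases shared with Tlr6.
Tlr1, GRCm39, coding strand: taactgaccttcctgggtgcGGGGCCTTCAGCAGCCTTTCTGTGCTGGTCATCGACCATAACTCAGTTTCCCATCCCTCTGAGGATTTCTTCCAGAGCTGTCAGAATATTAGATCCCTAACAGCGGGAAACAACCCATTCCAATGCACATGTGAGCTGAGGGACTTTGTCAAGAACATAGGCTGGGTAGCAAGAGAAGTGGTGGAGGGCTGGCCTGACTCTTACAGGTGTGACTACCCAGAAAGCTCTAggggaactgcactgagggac
Of all 75-base windows of Tlr1 transcripts, 9.88% were also found in Tlr6, and 6.97% of those of Tlr6 were found in Tlr1. The sources used here do not state how reads that fit several genes were counted, so the counts of this pair are uncertain. The paper gives paired reads longer than these windows, so the shares of windows are not shares of ambiguous reads. No other pair of members shared a window of 75 bases. Tlr7 (ENSMUSG00000044583, chrX:166086758-166113605, minus strand) and Tlr8 (ENSMUSG00000040522, chrX:166024184-166047325, minus strand), both receptors for single-stranded RNA, are 39432 bp apart on the X chromosome, and their longest shared run was 13 bases. Parts of Tlr7 transcripts did match transcripts of 23 other genes at 95% identity or more, over up to 645 bp. The same search gave shorter matches for Tlr1 (125 other genes, up to 108 bp), Tlr5 (35 genes, up to 139 bp), Tlr3 (1 gene, 258 bp) and Tlr4 (1 gene, 131 bp). It did not list Tlr1 and Tlr6 as a match, although they share the run of 229 bases. The search was thus incomplete, and its lengths and gene counts may be too low.

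The remaining members have no neighbour in the family. Tlr2 (ENSMUSG00000027995, chr3:83743576-83749074, minus strand) was annotated with 1 merged exon, Tlr4 (ENSMUSG00000039005, chr4:66745783-66849936, plus strand) with 6 and Tlr3 (ENSMUSG00000031639, chr8:45848702-45864117, minus strand) with 7. Exons of Tlr3 overlap those of the antisense lncRNA Gm45542 by 438 bp, and those of Tlr4 overlap the antisense lncRNA Gm69151 by 235 bp. Whether counting used the strand is not given in the sources used here, so reads from these overlaps cannot be assigned. Gm45542 itself had 2 to 6 counts per mouse. Tlr5 (ENSMUSG00000079164) is at chr1:182782311-182805500, Tlr9 (ENSMUSG00000045322) at chr9:106099797-106104082 and Tlr13 (ENSMUSG00000033777) at chrX:105186810-105204533, all on the plus strand.

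Promoter sequences from RefSeq (GRCm38.p6) were listed for 8 of the 10 members, with 10 start sites. Tlr4 and Tlr7 were not listed. The 250 bases before the start site are printed for 3 members that rose, Tlr1, Tlr2 and Tlr13, and for Tlr3, which did not pass the test. For Tlr1 the start site farther upstream of 2 is used. Capitals mark matches, on either strand, to GAGGAA, which is the core of the site for the myeloid factor PU.1, to GGAANNGAA, an ETS and IRF composite, to GAAANNGAA, the core of an interferon-stimulated response element, or to the NF-kB consensus. The first 2 of these motifs can overlap, as can the GGAANNGAA and GAAANNGAA sites.
Tlr1, chr5:64933559-64933808, minus strand: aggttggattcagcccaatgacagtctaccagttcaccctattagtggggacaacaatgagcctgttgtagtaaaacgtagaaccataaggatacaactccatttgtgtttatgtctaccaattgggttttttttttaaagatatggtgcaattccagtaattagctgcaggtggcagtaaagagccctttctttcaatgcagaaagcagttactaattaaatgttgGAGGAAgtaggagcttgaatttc
Tlr2, chr3:83841609-83841858, minus strand: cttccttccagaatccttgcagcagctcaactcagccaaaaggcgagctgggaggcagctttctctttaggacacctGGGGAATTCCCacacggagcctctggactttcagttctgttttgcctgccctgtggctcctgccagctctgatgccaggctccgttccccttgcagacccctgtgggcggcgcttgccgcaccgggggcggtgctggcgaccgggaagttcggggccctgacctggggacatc
Tlr13, chrX:106143025-106143274, plus strand: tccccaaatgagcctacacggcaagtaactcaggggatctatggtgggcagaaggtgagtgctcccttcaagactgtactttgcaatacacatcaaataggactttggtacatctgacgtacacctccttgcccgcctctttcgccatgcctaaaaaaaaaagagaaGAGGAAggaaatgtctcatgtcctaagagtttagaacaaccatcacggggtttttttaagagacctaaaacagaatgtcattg
Tlr3, chr8:45410381-45410630, minus strand: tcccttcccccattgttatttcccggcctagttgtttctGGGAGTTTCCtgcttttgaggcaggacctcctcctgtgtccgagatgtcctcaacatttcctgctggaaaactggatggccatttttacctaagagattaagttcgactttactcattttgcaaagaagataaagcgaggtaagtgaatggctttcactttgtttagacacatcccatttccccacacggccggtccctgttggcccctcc
GAGGAA was found at 4 of the 10 start sites, 23 bases upstream in Tlr1, 77 in Tlr8, 83 in Tlr13 and 112 in Tlr9, but not at the other start site of Tlr1, and in 23.3% of all 32851 listed promoters of this length. The NF-kB consensus was found 173 bases upstream in Tlr2 and 211 in Tlr3, and in 3.9% of all promoters. GAAANNGAA was found in Tlr8 and at 1 of the 2 start sites of Tlr6, against 7.13% of all promoters, and GGAANNGAA at no member, against 6.99%. These matches describe the letters of the windows and are not evidence of binding.

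Of the surface receptors, Tlr1 and Tlr2 rose, Tlr4 did not pass the test, and Tlr5 and Tlr6 had too few reads to be tested. Across the family 4 members rose and none fell. No member had a lower level at an unadjusted p under 0.05 either, in edgeR, DESeq2 or limma. Among all 16961 genes tested, 1.37% rose and 1.79% fell. Tlr1 and Tlr2 passed the filter on low counts through the Pcp2-cre mice alone, as the 3 control mice lay under 1.27 CPM, and so had to differ in part by the way they were kept. Tlr7 and Tlr13 each had 1 control mouse above that level, short of the 3 mice needed, so the same holds for them. Tlr4 had 2 such control mice and was also kept only with the Pcp2-cre mice. Tlr3 was thus the only tested member that the control mice alone would have kept. In a fit with no filter, where all 10 members had a value, 4 were likewise called, but only 2 were in DESeq2, in limma on log2(FPKM + 1), or without control mouse 2, Pcp2-cre mouse 1 or Pcp2-cre mouse 2.

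Tlr2, which pairs with TLR1 or TLR6 to bind bacterial lipoproteins, had the largest log2 fold change of the 6 tested members. It had 8, 4 and 8 counts in the controls, against 27, 25 and 27 in the Pcp2-cre mice. Every Pcp2-cre mouse was above every control mouse, which was also so for 10.8% of all tested genes. The mean went from 0.795 ± 0.201 to 3.48 ± 0.558 CPM (SD, n = 3), and the log2 fold change was 2.07 ± 0.31 (SE; 95% interval 1.44 to 2.71), with an adjusted p of 7.22e-05. Leaving out any 1 mouse kept the call, with log2 fold changes of 1.94 to 2.25.

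Tlr1, whose protein binds triacylated lipopeptides together with TLR2, had 4, 3 and 6 counts in the controls, against 14, 12 and 10 in the Pcp2-cre mice. The groups did not overlap. Its log2 fold change was 1.55 ± 0.40 (SE), from 0.513 ± 0.0749 to 1.57 ± 0.242 CPM (SD, n = 3), and the adjusted p was 0.0152. The call was lost without control mouse 1 (adjusted p = 0.0691), control mouse 2 (0.0501), Pcp2-cre mouse 1 (0.0964) or Pcp2-cre mouse 2 (0.0525), with log2 fold changes of 1.42 to 1.68 over the 6 omissions, and it was lost in DESeq2 (0.274). Tlr6, the other partner of TLR2, had 1, 2 and 0 counts in the controls, against 6, 7 and 3 in the Pcp2-cre mice. The 3 control mice were thus at or under the floor, and 2 of the 3 Pcp2-cre mice were above it. The ratio of summed counts per library size was 5.75, with an exact 95% interval of 1.65 to 30.8 that covers counting error only, and in the fit with no filter the adjusted p was 0.0501. The log2 ratio of Tlr1 to Tlr6 was 1.58, 0.49 and 3.70 in the controls, against 1.16, 0.74 and 1.58 in the Pcp2-cre mice, so these ranges overlap.

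Tlr4, the lipopolysaccharide receptor, had 14, 4 and 15 counts in the controls, against 14, 15 and 17 in the Pcp2-cre mice. Control mouse 2 was low, and the other 5 mice had 14 to 17 counts, which came to 1.49 to 2.52 CPM. The means were 1.28 ± 0.604 and 2.03 ± 0.424 CPM (SD, n = 3), and the log2 fold change of 0.59 had a 95% interval of -0.12 to 1.30 (adjusted p = 0.3975). A difference of the size seen for Tlr2 lies outside that interval, whereas no difference lies inside it. Tlr5, the flagellin receptor, had 2, 3 and 5 counts in the controls, against 2, 7 and 1 in the Pcp2-cre mice. Its ratio was 1.08, with an exact 95% interval of 0.403 to 2.89 that covers counting error only and not the spread between mice.

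**Figure D1:**
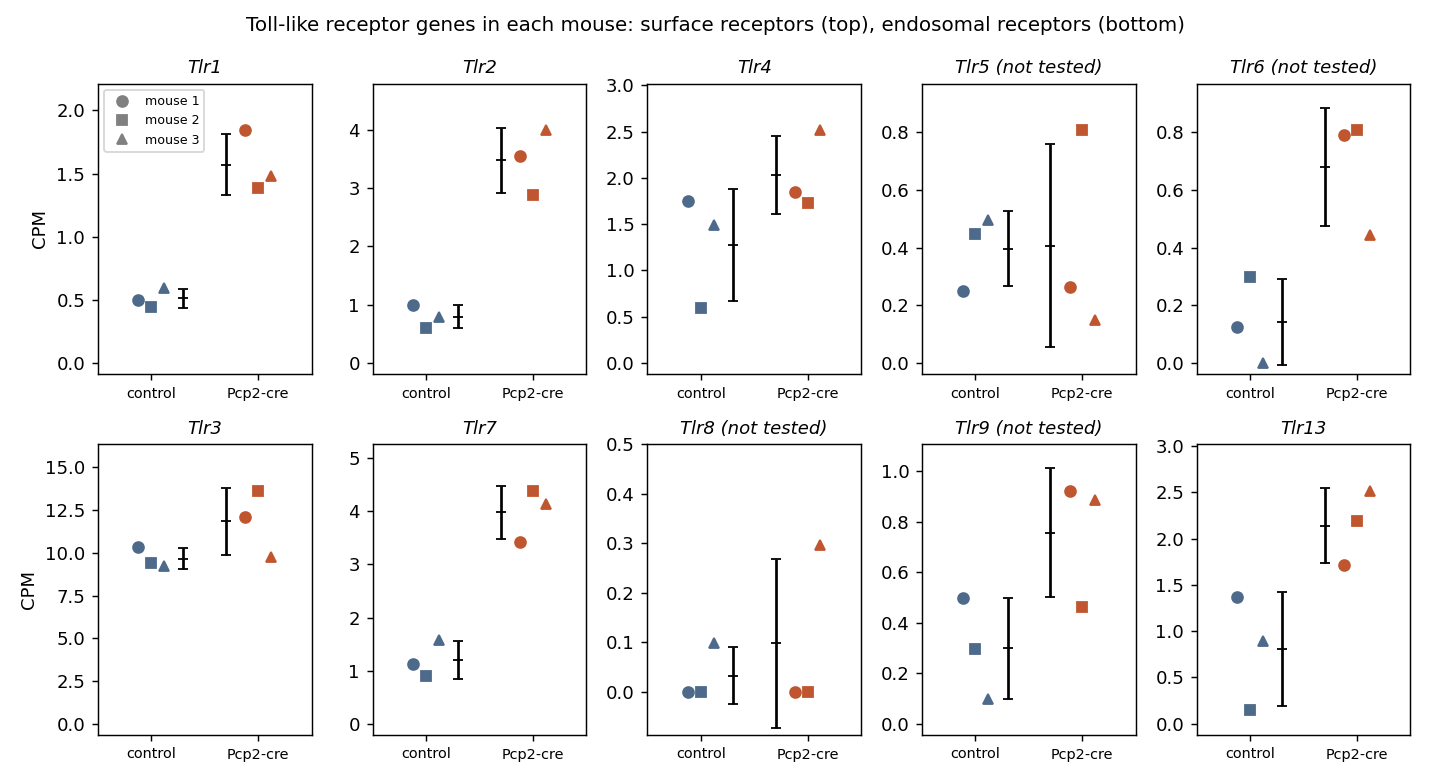
CPM of the 10 Toll-like receptor genes in each mouse, with surface receptors in the top row and endosomal receptors in the bottom row. Circles, squares and triangles are mice 1, 2 and 3, blue is control and orange Pcp2-cre, and black bars give the mean and SD of 3 mice, each panel having its own linear axis. In Tlr1, Tlr2, Tlr6, Tlr7 and Tlr13 every orange point lies above every blue point.

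Of the endosomal receptors, Tlr7 and Tlr13 rose, Tlr3 did not pass the test, and Tlr8 and Tlr9 had too few reads to be tested. Tlr7, a sensor of single-stranded RNA, had 9, 6 and 16 counts in the controls, against 26, 38 and 28 in the Pcp2-cre mice. Control mouse 3, a female, was the highest of its group but still under every Pcp2-cre mouse. The mean went from 1.20 ± 0.352 to 3.98 ± 0.5001 CPM (SD, n = 3), and the log2 fold change was 1.67 ± 0.27 (SE; 95% interval 1.10 to 2.24), with an adjusted p of 2.32e-04. The call stood without any 1 mouse, with log2 fold changes of 1.52 to 1.95, and was lost in limma on log2(FPKM + 0.1) (adjusted p = 0.0830). Tlr8, its neighbour, had 0, 0 and 1 counts in the controls, against 0, 0 and 2 in the Pcp2-cre mice. Both groups were at or under the floor, so no fold change is given. The log2 ratio of Tlr7 to Tlr8, which rests on these few counts of Tlr8, was 3.46 to 4.25 in control and 3.51 to 6.27 in Pcp2-cre mice.

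Tlr13, which binds a conserved sequence of bacterial 23S ribosomal RNA and is absent from the human genome, had 11, 1 and 9 counts in the controls, against 13, 19 and 17 in the Pcp2-cre mice. The groups did not overlap, but control mouse 1 was close to Pcp2-cre mouse 1, and control mouse 2 was far below the other control mice. The log2 fold change was 1.32 ± 0.40 (SE), with an adjusted p of 0.0499, next to the threshold. Without control mouse 2 it was 0.93 (adjusted p = 0.169), and the call was also lost without control mouse 3 (0.0745) or Pcp2-cre mouse 1 (0.0833), 2 (0.205) or 3 (0.200). In all, 11 of 15 alternatives did not call Tlr13, and each kept its direction. Tlr7, Tlr8 and Tlr13 are X-linked, and with the labelled sex as a covariate the same count of 4 members was called.

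Tlr3, the receptor for double-stranded RNA, was the most abundant member. It had 83, 63 and 93 counts in the controls, against 92, 118 and 66 in the Pcp2-cre mice, or 9.65 ± 0.616 and 11.8 ± 1.94 CPM (SD, n = 3). Pcp2-cre mouse 3 lay within the range of the control mice. The log2 fold change was 0.31, with a 95% interval of 0.02 to 0.60 and an adjusted p of 0.235, so a doubling, a log2 fold change of 1, lies outside the interval. Tlr9, the receptor for unmethylated CpG DNA, had 4, 2 and 1 counts in the controls, against 7, 4 and 6 in the Pcp2-cre mice. Control mouse 1 and Pcp2-cre mouse 2 had the same count. The ratio of the summed counts was 2.62 (exact 95% interval 1.03 to 7.47), and the adjusted p in the fit with no filter was 0.321. The family members Tlr11 and Tlr12, which were outside the 10 genes chosen, had at most 1 count and 2 to 5 counts per mouse.

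**Figure D2:**
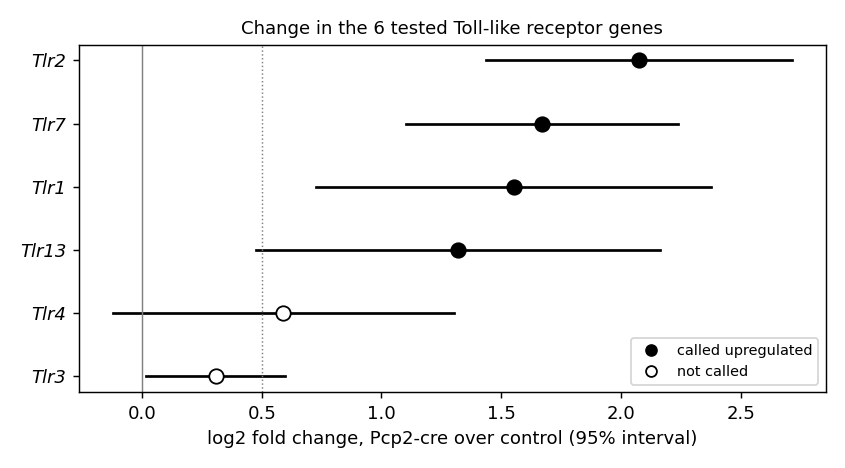
Log2 fold change of the 6 tested members, Pcp2-cre over control, with 95% intervals from edgeR (3 mice per genotype). Filled circles are genes that passed both thresholds and open circles those that did not, the solid line marks 0 and the dotted line 0.5. The intervals of Tlr2, Tlr7 and Tlr1 lie wholly above 0.5, while that of Tlr13 starts at 0.48 and that of Tlr4 includes 0.

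Levels of different genes were compared in the FPKM table, which scales fragments to exon length and library size. The FPKM and count tables do not match gene by gene: Tlr6 had no count in control mouse 3 but an FPKM of 0.0626. In control mice Tlr3 led, with 2.18 ± 0.409 FPKM (SD, n = 3), and no other member reached 0.5 FPKM in any control mouse. Tlr4 (0.283 ± 0.0667), Tlr7 (0.278 ± 0.119), Tlr2 (0.245 ± 0.0859) and Tlr13 (0.150 ± 0.0665) followed, and each neighbour in this order overlapped the next. Tlr5, Tlr1, Tlr9 and Tlr6 lay between 0.0564 and 0.0858 FPKM on average and likewise overlapped in turn, and Tlr8 was lowest at 0.00851 FPKM.

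In Pcp2-cre mice Tlr3 still led at 2.55 ± 0.522 FPKM (SD, n = 3). Tlr2 moved from rank 4 to rank 2 with 1.02 ± 0.214 FPKM, and Tlr7 was at 0.809 ± 0.124 FPKM, within the spread of Tlr2. Tlr4 at 0.481, Tlr13 at 0.444 and Tlr1 at 0.341 FPKM came next, and Tlr1 moved from rank 7 to rank 6. Tlr9, Tlr6 and Tlr5 averaged 0.118 to 0.150 FPKM. Tlr3 made up 55.3% to 69.4% of the summed FPKM of the family in control mice and 38.1% to 47.2% in Pcp2-cre mice, so the groups did not overlap in this share. On this scale the genotypes of Tlr4 and Tlr9 did not overlap either, with the Pcp2-cre mice higher, which was not so in CPM.

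**Figure D3:**
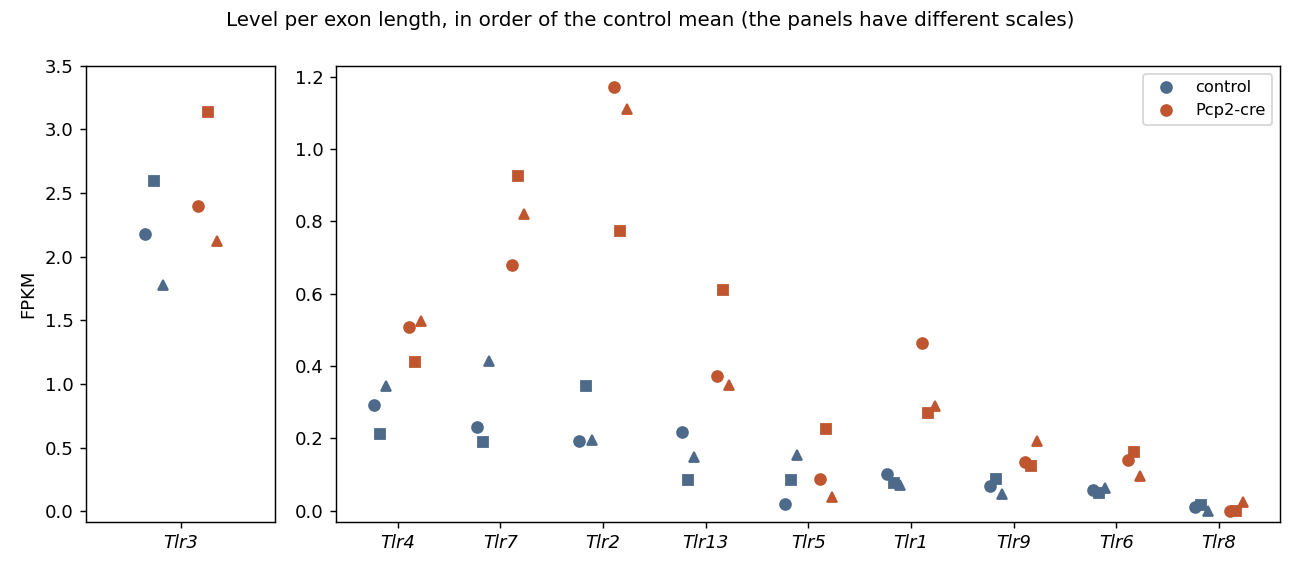
FPKM of the members in each mouse, ordered by the control mean, with Tlr3 in a panel of its own with a larger scale. Circles, squares and triangles are mice 1, 2 and 3, blue is control and orange Pcp2-cre. Tlr3 overlaps between genotypes, whereas Tlr2 goes from 0.193 to 0.344 FPKM in control mice to 0.774 to 1.17 in Pcp2-cre mice.

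Genes of the microglial lineage, the cells in which most members are known to be expressed, moved in the same direction as the receptors. The 7 of 10 that rose included Csf1r (log2 fold change 0.96), Cx3cr1 (1.48), Fcrls (2.89), Sall1 (0.87), Itgam (1.55) and Aif1 (1.94), while Tmem119 (0.06), Siglech (0.15) and P2ry12 (0.28) did not pass the test. Itgam and Aif1 had fewer than 3 control mice at the filter's 1.27 CPM, so they were kept only with the Pcp2-cre mice. Given the shared direction, the receptors were also expressed per mouse relative to the 10 genes, as a description with no test. The value is log2 CPM minus the mean log2 CPM of the 10 genes. On this scale Tlr2 was -2.36, -3.01 and -2.84 in the controls, against -1.81, -1.95 and -1.75 in the Pcp2-cre mice. It was thus higher relative to the microglial genes by 0.90, and its groups did not overlap. Tlr7 was higher by 0.55 and Tlr1 by 0.34, each with groups that did not overlap, although for Tlr1 Pcp2-cre mouse 3 (-3.13) was close to control mouse 3 (-3.23). Among all tested genes 0.395% had such groups. That share is low because the microglial mean itself was higher, at 2.43 to 2.60 log2 CPM in control and 3.51 to 3.77 in Pcp2-cre mice. Neither the share nor the differences from the mean show how these receptors compare with single microglial genes. The mean includes Tmem119, Siglech and P2ry12, which did not pass the test. The log2 fold change of Fcrls (2.89) was larger than that of Tlr2 (2.07), and that of Aif1 (1.94) larger than that of Tlr7 (1.67). Itgam (1.55) was level with Tlr1 (1.55), while Cx3cr1 (1.48), Csf1r (0.96) and Sall1 (0.87) were lower than each of these receptors. Tlr13 was higher by 0.54, but its groups overlapped, with control mouse 2 at -4.59 and the other 5 mice between -2.84 and -1.93.

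Tlr4 was lower by 0.41 on this scale, with control mice between -3.01 and -1.59 and Pcp2-cre mice between -2.74 and -2.40, so the groups overlapped. Tlr3 was at 0.93, 0.81 and 0.62 in the controls, against -0.06, 0.26 and -0.47 in the Pcp2-cre mice. Every Pcp2-cre mouse was below every control mouse, as was so for 96% of all tested genes. Tlr3 thus moved relative to the microglial genes as nearly the whole table did.

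Of the other immune cells, markers of monocytes, neutrophils and lymphocytes were scarce, and those of border macrophages less so. Border macrophage markers were summed at 11.02 to 13.8 CPM in control and 12.5 to 16.7 CPM in Pcp2-cre mice, and none of the 4 tested (Mrc1, Cd163, Lyve1 and F13a1) passed the test in edgeR, DESeq2 or limma, or had an unadjusted p under 0.05. None of 8 monocyte and neutrophil markers could be tested, their sums were 0.893 to 3.24 CPM in control and 1.33 to 5.27 CPM in Pcp2-cre mice, and Ly6g was 0 in all mice. The lymphocyte markers, at 0.447 to 0.991 and 0.922 to 1.33 CPM, could not be tested either, and Nkg7 was 0 in all mice. Of the resident cells, astrocyte markers were summed at 3514 to 3563 CPM in control and 3709 to 3771 CPM in Pcp2-cre mice, and 2 of 6, Gfap and Aqp4, rose. Slc1a3 (log2 fold change -0.22, adjusted p = 9.95e-05) and Aldoc (-0.35, adjusted p = 2.50e-06) were lower and Gja1 (0.37, adjusted p = 2.65e-06) was higher in every Pcp2-cre mouse, by less than the threshold of 0.5. Granule cell markers (3624 to 3660 against 3737 to 3885 CPM) and endothelial markers (156 to 164 against 165 to 175 CPM) had no call among 5 genes each in edgeR, DESeq2 or limma, with 2 and 1 of them higher at an unadjusted p under 0.05 in edgeR. Of the granule cell genes, Neurod1 (log2 fold change 0.17, adjusted p = 0.0282) was higher in every Pcp2-cre mouse, by less than the threshold. The part of any of the cells above in the change of the receptors was not tested.

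**Figure D4:**
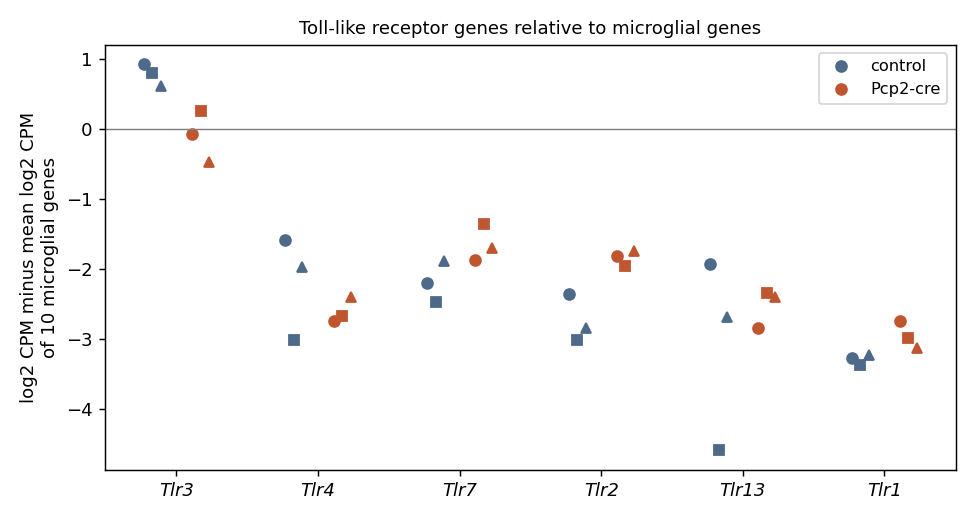
Log2 CPM of the 6 tested members minus the mean log2 CPM of 10 microglial genes, in each mouse. Circles, squares and triangles are mice 1, 2 and 3, blue is control and orange Pcp2-cre, and the line at 0 is the microglial mean. Tlr2, Tlr7 and Tlr1 lie higher in the 3 Pcp2-cre mice than in any control, Tlr3 lies lower, and Tlr4 and Tlr13 overlap.

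For each member that rose, the 3 tested genes with the most similar values over the 6 mice were found by the root mean square difference of centred log2 CPM. For Tlr2 they were Lag3 (difference 0.0588), Fyb (0.138) and Fcgr3 (0.165). For Tlr7 they were Wdfy4 (0.106), Laptm5 (0.137) and Cd53 (0.156). For Tlr1 they were Cx3cr1 (0.108), Ikzf1 (0.155) and Bin2 (0.176), all on the log2 scale. All 9 of these genes rose, which their choice by likeness to members that rose made likely. The nearest genes to Tlr13, Slfn8 (0.425), Gm32102 (0.438) and Timp1 (0.469), were farther from it, and Gm32102 did not pass the test.

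Around the receptors, 82 genes of the pathway were listed, 58 could be tested, 8 rose and 2 fell, where 1.37% and 1.79% of all tested genes did so. Their median log2 fold change was 0.07, against 0.0045 for all genes tested. Of those that rose, Cd14, Irf8, Pik3ap1, Lilrb4a and Ccl3 had fewer than 3 control mice at the filter's 1.27 CPM. They were kept only with the Pcp2-cre mice, which favours genes that are higher there. Of the coreceptors and chaperones, 4 of 11 tested genes rose. Ly86 (MD-1), the secreted partner of CD180, had 12, 19 and 27 counts in the controls, against 80, 76 and 78 in the Pcp2-cre mice, a log2 fold change of 2.12 ± 0.21 (SE, adjusted p = 3.97e-07). Cd180 (RP105), a relative of TLR4 without a TIR domain, had 24, 18 and 36 counts in the controls, against 43, 49 and 46 in the Pcp2-cre mice, a log2 fold change of 0.94 (adjusted p = 0.00383). The call of Cd180 was lost in DESeq2 (adjusted p = 0.0590), and its log2 fold change was 2.93 in limma on log2(FPKM + 0.1). Both genes of this complex thus rose in edgeR, with groups that did not overlap.

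Cd14, which hands lipopolysaccharide to TLR4, rose from 11, 7 and 6 to 23, 26 and 11 counts (log2 fold change 1.41, adjusted p = 0.0130), although the call was lost without control mouse 3 (adjusted p = 0.0812), Pcp2-cre mouse 1 (0.0904) or Pcp2-cre mouse 2 (0.124), and in DESeq2 (0.173). Ly96 (MD-2), the obligate partner of TLR4, went from 18, 7 and 8 to 11, 4 and 11 counts, with overlapping groups and a log2 fold change of -0.23 (adjusted p = 0.861). Unc93b1, which carries the nucleic acid sensing receptors to endosomes, rose from 59, 65 and 56 to 95, 118 and 98 counts (log2 fold change 0.88, adjusted p = 8.12e-04). Lbp, the lipopolysaccharide binding protein, fell from 62, 92 and 32 to 19, 24 and 28 counts (log2 fold change -1.32, adjusted p = 0.0278). Its groups overlapped in CPM. The counts of Lbp, like the choroid plexus markers, were highest in control mice 1 and 2, and the part of the choroid plexus in this difference was not tested. The call was lost without any 1 mouse but control mouse 3 (adjusted p of 0.0627 to 0.199), and in DESeq2 (0.365). In all, 6 of the 11 did not pass the test, Ly96 among them, and the most abundant were the chaperone Hsp90b1 (log2 fold change -0.02) and the transporter Slc15a3 (0.08).

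Of the adaptors, 1 of 5 tested genes rose, Pik3ap1 (BCAP), which links these receptors to PI3 kinase, from 15, 8 and 13 to 42, 22 and 33 counts (log2 fold change 1.54, adjusted p = 0.00205). Its call was lost in limma on log2(FPKM + 0.1) (adjusted p = 0.0812). Myd88, the adaptor shared by most of the family, had 58, 35 and 84 counts in the controls, against 61, 66 and 52 in the Pcp2-cre mice. Its groups overlapped, and its log2 fold change was 0.14 (adjusted p = 0.755). Ticam1 (TRIF), the adaptor of TLR3, had a log2 fold change of -0.13 (adjusted p = 0.758) and Sarm1 of -0.05. None of the 16 kinases and ubiquitin ligases, including Irak1, Irak4, Traf6, Tbk1 and Map3k7, rose or fell in edgeR, DESeq2 or limma on log2(FPKM + 1). At an unadjusted p under 0.05, 2 of these 16 were higher and none lower in edgeR. The most abundant were Ikbkb (log2 fold change -0.09) and Tab2 (0.11).

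Of 8 tested negative regulators 1 rose, the inhibitory receptor Lilrb4a, from 2, 1 and 7 to 30, 29 and 12 counts (log2 fold change 2.89, adjusted p = 1.04e-04). Its log2 fold change was 3.81 without control mouse 3, and it too passed the filter through the Pcp2-cre mice alone. Tollip, which binds IRAK1 and dampens signaling, was lower in every Pcp2-cre mouse with an adjusted p of 1.42e-05, but its log2 fold change of -0.33 was under the threshold of 0.5. Cyld (-0.03) and Rnf216 (-0.06) did not pass the test. Irf8, a myeloid transcription factor, rose from 12, 16 and 11 to 60, 38 and 48 counts (log2 fold change 2.00, adjusted p = 4.72e-05) and was 1 of 9 transcription factors to do so. Irf3 (0.02), Nfkb1 (-0.01) and the other 6, Irf7 and Rela among them, did not pass the test.

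Most inflammatory genes induced by these receptors were too low to test, with 16 of 20 left out by the filter. Ccl3, a chemokine that attracts monocytes and macrophages, was 0, 0 and 2 in control and 22, 19 and 16 in Pcp2-cre mice, and was the only 1 of the 4 tested to rise (adjusted p = 6.59e-06). It passed the filter on low counts through the Pcp2-cre mice alone, and so had to differ in part. Its ratio was 30.7, with an exact 95% interval of 8.13 to 260 for counting error, and rests on the 2 counts of control mouse 3. Without that mouse the fitted log2 fold change was 7.23, against 4.70 with all mice. Nfkbiz (log2 fold change 0.08) and Cd80 (-0.08) did not pass the test. Ccl4 had no count in any control mouse and 10, 9 and 11 in Pcp2-cre mice, at least 3.56-fold higher than in control mice, which were set to the floor of 3 counts per library. Cd86, a costimulatory ligand, had 3, 1 and 3 counts in the controls, against 7, 24 and 24 in the Pcp2-cre mice, a ratio of 8.48 (exact 95% interval 3.85 to 22.1). In contrast, Tnf had no count in control mice and 1, 3 and 1 in Pcp2-cre mice, Il1b at most 3 and Il6 at most 1 in any mouse, and Il12b, Cxcl2 and Ifnb1 were 0 in all mice. A count of 0 here allows up to 3 counts in a library.

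Of the 5 tested endogenous ligands, molecules of damaged tissue reported to act on TLR2 or TLR4, the matrix protein Tnc fell from 240, 213 and 251 to 102, 87 and 90 counts (log2 fold change -1.23 ± 0.12, SE, adjusted p = 2.63e-07). Vcan, another matrix protein, was higher with an adjusted p of 0.0302, but its log2 fold change of 0.26 was under the threshold. Hspd1 (0.01) and Hmgb1 (0.13) did not pass the test. S100a8 and S100a9, which neutrophils carry in bulk, had 0 to 9 and 2 to 18 counts per mouse and could not be tested.

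**Figure D5:**
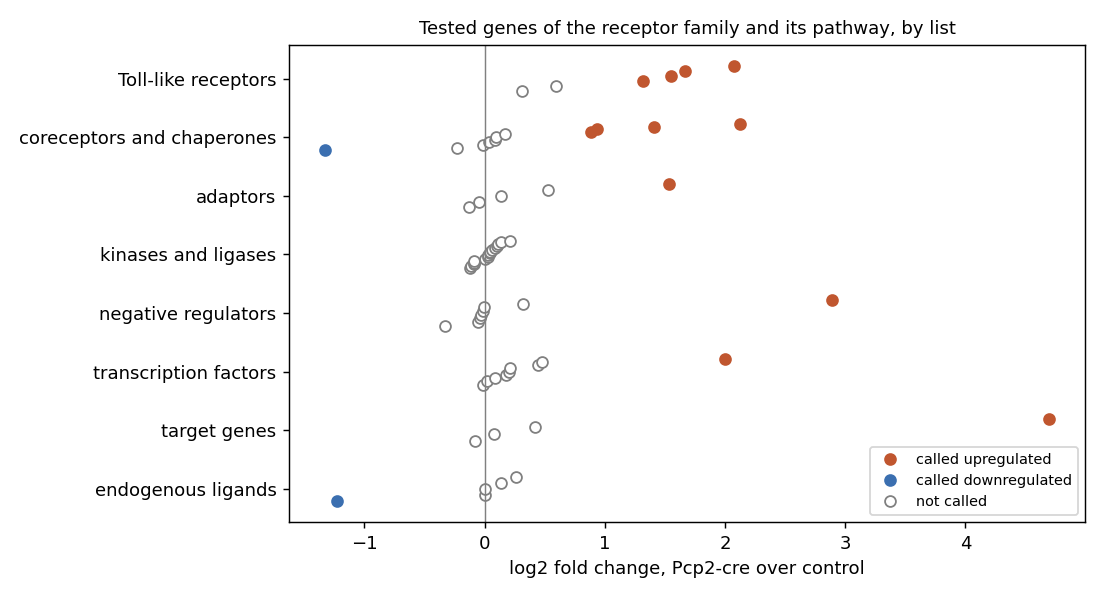
Log2 fold change, Pcp2-cre over control, of every tested gene of the family and of 7 pathway lists, 1 circle per gene. Orange marks genes that rose, blue those that fell and open grey those that did not pass both thresholds. The 16 kinases and ligases lie within 0.21 of 0, while 4 of the 6 tested receptors lie above 1.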

How the data were processed

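Cerebellar RNA of 6 mice, 3 per genotype, was analysed, with genotype, sex and mouse number taken from the labels. Trimmed reads had been mapped by the authors to GRCm39 with STAR, and Gencode features counted with featureCounts and StringTie, whose versions, use of strand and treatment of multimapping reads are not given in the sources used here. They deposited raw counts per gene and, separately, FPKM values for 55005 genes. The deposited counts were fitted with the quasi-likelihood model of edgeR 4.0.16 under R 4.3.3, after its filterByExpr step and TMM scaling, over 16961 genes, and p-values were adjusted over all of them. Log2 CPM values had 0.5 counts added. The scripts were tested on simulated data. Libraries of 1 genotype differed by more than sampling noise (chi-square per gene 1.37 to 3.18).

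The members and gene lists were chosen with earlier results of these data known. Named were all members, pathway genes with an adjusted p of at most 0.05, the 2 most abundant others per list, the 3 nearest genes per member that rose and Sting1. Further listed genes, and the motifs, were chosen after values were seen. The value of 1 microglial marker is not reported here, but it stayed in the sums and means over its list. Coordinates and transcripts came from Gencode M39 (GRCm39, the files' build), and similar transcripts were found with blastn 2.17.0. Alternatives were DESeq2 1.42.0, limma 3.58.1 on log2(FPKM + 1) or log2(FPKM + 0.1), other edgeR settings, a replicate block, sex as a covariate and each mouse left out.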

Additional observations from a re-analysis of the deposited data

How the results depend on the processing

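Against 4 members that rose, DESeq2 called 2, limma called 2 on log2(FPKM + 1), 2 on log2(FPKM + 0.1) and 0 on log2(FPKM + 1) with no filter, and leaving out 1 mouse gave 2 to 3. With at least 10 counts in every mouse 0 were called, because Tlr3 was the only member kept. No member was called lower under any of these. Tlr2 kept its call in 14 of 15 alternatives, Tlr7 in 13, Tlr1 in 8 and Tlr13 in 4, and none of these 4 changed direction. Against 8 pathway genes that rose, 4 did with at least 10 counts in every mouse and 8 to 10 without 1 mouse. Against 2 that fell, 1 did in DESeq2 and in each of the 3 limma fits and 1 to 2 without 1 mouse. Over all genes, 233 rose and 304 fell, against 144 that rose in DESeq2, 151 and 176 with limma on log2(FPKM + 1), 162 that fell on log2(FPKM + 0.1), 108 and 117 with no FPKM filter, 507 and 805 with no fold threshold, 142 and 94 where a log2 change of 1 was required, and 183 to 245 and 243 to 387 without 1 mouse. The cause of these differences was not tested, apart from the thresholds, which change only which genes count.

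No clear pairing by mouse number was seen, but 3 mice per genotype cannot exclude it. Deviations from the group means correlated at 0.0654, 0.0779 and 0.225 between mice of the same number, and control mouse 1 correlated best with Pcp2-cre mouse 2 (0.0956). The highest value, 0.225, was between the mice numbered 3, which are also the females, so number and sex cannot be told apart there. With the replicate block 3 members rose, Tlr13 having an adjusted p of 0.0528, and over all genes 229 rose and 319 fell. Depth is a limit, since 4 of 10 members were too low to test and floors were 0.297 to 0.447 CPM.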
